A study of Homo sapiens with 6 samples.

Results

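The aminoacyl-tRNA synthetases are the enzymes that attach each amino acid to its transfer RNA. They were taken as a list of 38 genes by symbol. The list held 20 cytosolic enzymes, 16 mitochondrial enzymes and 2 scaffold proteins, AIMP1 and AIMP2. Of these, 36 were found among the 37255 transcription units (TUs, here 1 counted transcript per gene) that had both lengths needed below, and 34 passed the expression thresholds of the half-life comparison. TARS2 and VARS2, both mitochondrial, were not matched to a counted transcript and are not analysed here. MARS2 and SARS2, also mitochondrial, were found but fell under a threshold.

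All libraries came from untreated K562 cells, an established chronic myelogenous leukemia line with erythroid features. There were 4 libraries of total RNA depleted of ribosomal RNA (RNA-seq), which measures the RNA present at steady state, and 2 PRO-seq libraries, which measure engaged RNA polymerases. PRO-seq is read here as transcription, but it also depends on elongation rate. The study names this as a limitation, and elongation rate was not measured in these libraries. The cells for both assays grew in the same flask according to the study's methods, so the replicates carry no separate cultures and p-values measure only the spread between these libraries. RNA-seq replicates 1 and 3, and likewise 2 and 4, differed from each other by little more than counting noise (chi-square per degree of freedom 1.11 and 1.12, against 1.74 to 2.11 for the other RNA-seq pairs). Each pair may therefore be 1 library sequenced again, which would leave 2 RNA-seq libraries and make the standard errors and p-values below, which count 4, too small. With each pair summed and counted once, the calls described below stayed at 27 genes above and 3 below the median mRNA. The question that the pairing of assays addresses is how far the RNA level of a gene departs from its transcription.

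Charged tRNA for every amino acid is needed in each compartment that makes protein. The cytosol and the mitochondria mostly use separate enzymes, all of them encoded in the nucleus, and several cytosolic enzymes sit together with AIMP1 and AIMP2 in the multi-synthetase complex. KARS1 and GARS1 each supply both compartments from a single gene. Mitochondria have no glutaminyl enzyme of their own: EARS2 charges the glutamine tRNA with glutamate, and the GATB, GATC and QRSL1 subunits of an amidotransferase convert it. Amino acid shortage activates the transcription factor ATF4, which binds C/EBP-ATF response elements and is known to induce many cytosolic synthetase genes.

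RefSeq promoters (GRCh38.p14, 250 bases before to 50 after the start of each gene) were held for 32 of the 38 genes, and the core letters of that element, TTGCATCA, were searched on both strands. They were present in 6 of 16 cytosolic promoters and in 0 of 14 mitochondrial ones, against 0.923% of 27305 promoters of the same length. The other 10 cytosolic promoters lacked these letters. The 6 sites are shown because the element is the one known for induction of synthetase genes. Each is written 5′ to 3′ on the strand of the gene, with the matched letters in capitals. In NARS1 the capitals are the reverse complement of the motif.
AARS1, chr16:70289660-70289719, minus strand: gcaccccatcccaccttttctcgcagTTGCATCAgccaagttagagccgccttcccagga
CARS1, chr11:3057407-3057436, minus strand: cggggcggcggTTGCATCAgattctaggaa
IARS1, chr9:92293698-92293736, minus strand: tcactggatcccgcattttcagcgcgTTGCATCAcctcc
MARS1, chr12:57488053-57488082, plus strand: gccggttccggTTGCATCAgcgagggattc
NARS1, chr18:57621804-57621833, minus strand: tctacgctctcTGATGCAAcgccggaatcg
TARS1, chr5:33440956-33440985, plus strand: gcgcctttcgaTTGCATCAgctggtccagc

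The first base of the match lay 187 bases before the annotated start in AARS1, and within 14 bases of the start in the other 5 genes. It came 13, 4 and 2 bases before the start in IARS1, MARS1 and CARS1, and 2 and 14 bases after it in TARS1 and NARS1. The 6 genes with the letters had a median PRO-seq level of 122.5 TPM (a count divided by TU length and scaled to the library total), with a range of 60.1 to 201.4. The 10 cytosolic genes without them had a median of 81.7 TPM and a range of 52.6 to 199.7, so the groups overlapped over most of their range. A match in a promoter is a description of the letters and not a measurement of binding. The GC box GGGCGGG was in 9 of 16 cytosolic and 9 of 14 mitochondrial promoters (32.9% of all promoters), and the CCAAT box in 7 and 9 (35.7%), so each was more frequent than TTGCATCA in both classes. Of the rarer motifs, the E-box CACGTG was in 1 cytosolic and 3 mitochondrial promoters (7.44% of all promoters), the ETS motif CCGGAAGT was in 4 and 3 (4.44%), and the letters TATAAA were in 1 and 0 (11.95%).

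The cytosolic enzymes were among the more abundant mRNAs, and most mitochondrial ones had far less RNA. The median cytosolic enzyme stood at 251.3 TPM in RNA-seq and 90.6 TPM in PRO-seq, the median mitochondrial enzyme that passed the thresholds at 47.6 and 47.4 TPM, and the median of the 8733 mRNAs tested at 31.2 and 47.5 TPM. Of the 20 cytosolic genes, 19 lay above the median mRNA in RNA-seq and 19 in PRO-seq. Of the 12 mitochondrial genes, 7 and 6 did. Summed over genes, the 20 cytosolic enzymes held 4962, 4968, 4994 and 4988 TPM in the RNA-seq libraries and 2223 and 2299 TPM in the PRO-seq libraries. The 12 mitochondrial enzymes that passed the thresholds held 740.0, 727, 748 and 769.8 TPM in RNA-seq and 599.5 and 615 TPM in PRO-seq. On this length-scaled sum both classes were higher in every RNA-seq library than in either PRO-seq library, the cytosolic class by the wider margin. The 8733 mRNAs tested went the same way, with 920300 to 921900 TPM in RNA-seq and 744400 and 747100 TPM in PRO-seq. A higher sum in RNA-seq was therefore not particular to these enzymes. The raw shares of counts on TUs, which are not scaled by length, ran from 0.703% to 0.705% in RNA-seq and were 0.317% and 0.32% in PRO-seq for the cytosolic genes. For the 14 mitochondrial genes found, MARS2 and SARS2 included, they ran from 0.11% to 0.113% in RNA-seq and were 0.151% and 0.148% in PRO-seq. That is the other way from the summed TPM of the 12 that passed.

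TARS1, the cytosolic threonyl enzyme, had the highest RNA level, at 591, 606, 596 and 615 TPM in the 4 RNA-seq libraries. KARS1, the lysyl enzyme of both compartments, followed at 525, 495, 498 and 506 TPM, and SARS1, the cytosolic seryl enzyme, at 432, 450, 461 and 434 TPM. The 4 libraries of these 3 genes did not overlap. In PRO-seq the order at the top was another: IARS1, the cytosolic isoleucyl enzyme, at 199 and 204 TPM, KARS1 at 193 and 206 TPM and VARS1, the cytosolic valyl enzyme, at 196 and 203 TPM overlapped one another. At the low end in RNA-seq stood SARS2 (8.02, 8.61, 5.77 and 7.98 TPM), PARS2 (10.5, 13.8, 10.2 and 12.5 TPM) and TARS3 (15.1, 15.3, 15.0 and 16.7 TPM), the seryl and prolyl enzymes of mitochondria and a second cytosolic threonyl enzyme. The lowest PRO-seq levels among the genes that passed belonged to FARS2 (18.5 and 18.5 TPM), WARS2 (20.04 and 20.6 TPM), and TARS3 (31.6 and 28.8 TPM). The coefficient of variation of a gene's TPM over the RNA-seq libraries had a median of 3.35% over the 36 genes and reached 16.5%.

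Relative half-life was taken, as the study defines it, as RNA-seq TPM over PRO-seq TPM, and is given here as log2 relative to the median mRNA, so that 0 is the median mRNA. It carries no unit of time. It rests on RNA levels being at steady state and on PRO-seq levels following transcription rather than elongation rate. For its main half-lives the study used published K562 libraries. It found these less variable, and closer to other published estimates, than the new libraries used here. The comparison was limited to TUs whose PRO-seq level was over 10 TPM and whose RNA-seq level was over 1 TPM (10053 TUs, of them 8733 mRNAs). With edgeR's quasi-likelihood test and Benjamini-Hochberg adjusted p under 0.05 over all of these TUs, 27 of the 34 listed genes lay above the median mRNA, 3 lay below and 4 did not pass. Among all mRNAs tested, 45.4% were called above and 44.9% below, and among all TUs 40% and 50.4%. Against a 2-fold difference, 19 genes were above and 1 was below, where 24.3% and 23.2% of mRNAs were. The median log2 half-life of the 34 genes was 1.27, while the middle 50% of all mRNAs ran from -1.06 to 1.08.

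The 20 cytosolic enzymes had a median log2 half-life of 1.49 (2.82-fold), and 17 were above, 1 was below and 2 did not pass. The 12 mitochondrial enzymes had a median of 0.85 (1.80-fold), with 8 above, 2 below and 2 that did not pass. Against a 2-fold difference, 14 of the cytosolic and 3 of the mitochondrial enzymes were above. The medians differed by 0.65, and by 0.60 to 0.72 over the 8 combinations of 1 RNA-seq with 1 PRO-seq library. Since the genes are not replicates of a compartment, that difference was not tested. Both listed scaffold genes were above.

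RARS1, the cytosolic arginyl enzyme, was farthest from its transcription. Its counted transcript lies at chr5:167913476-167946306 (GRCh37, plus strand, 15 exons). It had 399.6, 429.4, 413.5 and 426.3 TPM in RNA-seq and only 51.6 and 53.6 TPM in PRO-seq. Its PRO-seq level was thus close to the median mRNA while its RNA level was among the highest of the list, and its log2 half-life was 3.62 ± 0.05 (SE), 12.3-fold (edgeR's quasi-likelihood test, Benjamini-Hochberg adjusted p = 2.2e-31). SARS1 (chr1:109756540-109780804, GRCh37, plus strand, 11 exons) had 80.5 and 76.0 TPM in PRO-seq beside the RNA levels above, and a log2 half-life of 3.14 ± 0.05, 8.82-fold (edgeR, adjusted p = 1.1e-29). IARS2, the mitochondrial isoleucyl enzyme (chr1:220267474-220321383, GRCh37, plus strand, 23 exons), came after these. It had 208.2, 208.3, 208.0 and 215.3 TPM in RNA-seq and 42.4 and 39.5 TPM in PRO-seq, and its log2 half-life was 2.99 ± 0.05, 7.97-fold (edgeR, adjusted p = 1.2e-29). No other mitochondrial enzyme came near it, the next being NARS2, the asparaginyl enzyme, at 1.69 ± 0.06. TARS1, whose promoter holds the letters shown above, had 151 and 146 TPM in PRO-seq and a log2 half-life of 2.65 ± 0.04, 6.29-fold (edgeR, adjusted p = 1.6e-30).

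The 7 listed enzymes of the multi-synthetase complex were all above the median mRNA, also against a 2-fold difference. This grouping was made after their values were known, and the shares of all mRNAs called above are the 45.4% and 24.3% already given. Their log2 half-lives ran from 1.51 ± 0.03 for IARS1 to the 3.62 of RARS1, with EPRS1, the joint glutamyl and prolyl enzyme, at 2.61 ± 0.04, QARS1, the glutaminyl enzyme, at 2.07 ± 0.07, LARS1, the leucyl enzyme, at 1.99 ± 0.04, KARS1 at 1.98 ± 0.04 and MARS1, the methionyl enzyme, at 1.69 ± 0.05. Of the 13 other cytosolic enzymes, 10 were above, and 7 against a 2-fold difference. Members of the same complex nevertheless differed in PRO-seq level, from 52.6 TPM for RARS1 to 201.4 TPM for IARS1.

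The listed scaffold genes had overlapping RNA levels and unequal PRO-seq levels. AIMP1 had 129, 143, 135 and 136 TPM in RNA-seq and 36.03 and 42.4 TPM in PRO-seq, and AIMP2 had 142, 138, 137 and 150 TPM and 88.1 and 82.8 TPM. Their RNA-seq libraries overlapped, and their PRO-seq libraries did not. The log2 half-life was 2.43 ± 0.07 for AIMP1 and 1.37 ± 0.07 for AIMP2. Of the exons of AIMP2, 44.4% are covered on the opposite strand by EIF2AK1, and the sources used here do not say whether the counting used strand.

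Among the remaining cytosolic enzymes, NARS1 (asparaginyl) stood at 2.26 ± 0.05, GARS1 (glycyl, both compartments) at 1.48 ± 0.05, FARSA (the alpha subunit of the phenylalanyl enzyme) at 1.32 ± 0.06, WARS1 (tryptophanyl) at 1.22 ± 0.05 and YARS1 (tyrosyl) at 1.18 ± 0.04. CARS1 (cysteinyl) at 0.88 ± 0.06, AARS1 (alanyl) at 0.85 ± 0.05 and HARS1 (histidyl) at 0.59 ± 0.06 were above the median mRNA but did not pass the test against 2-fold. Other counted TUs cover 45.8% of the PRO-seq window of WARS1 and 22.8% of that of NARS2 on the opposite strand, and their part in the values was not tested. VARS1 was different in that it paired one of the highest PRO-seq levels with 146, 130, 147 and 131 TPM in RNA-seq, and its log2 half-life of 0.11 ± 0.06 did not pass (edgeR, adjusted p = 0.067). It passed, above the median mRNA, without RNA-seq replicate 2 (0.15, edgeR, adjusted p = 0.016) or replicate 4 (0.13, edgeR, adjusted p = 0.027). FARSB, the beta subunit of the phenylalanyl enzyme, did not pass either, at -0.08 ± 0.05 (edgeR, adjusted p = 0.11), but was called below without RNA-seq replicate 4 (-0.11, edgeR, adjusted p = 0.0385).

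FARSA and FARSB form a single enzyme, and their levels were unequal. FARSA had 297, 270.2, 290.0 and 264 TPM in RNA-seq and 167 and 182 TPM in PRO-seq, whereas FARSB had 36.3, 38.3, 36.7 and 40.4 TPM and 62.9 and 62.2 TPM. The ratio of FARSA to FARSB was therefore 7.39-fold in RNA-seq (6.55 to 8.17 over libraries) and 2.79-fold in PRO-seq (2.66 and 2.93). FARSB was scaled by a long exon model of 6761 bases with a coding length of 1767, which lowers its RNA-seq TPM if cells use a shorter form, and this was not tested.

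TARS3 was the only cytosolic enzyme called below, at -0.33 ± 0.08 (edgeR, adjusted p = 3.6e-04). Its counted transcript lies at chr15:102193799-102264676 (GRCh37, minus strand, 19 exons). TARS1 exceeded it 38.9-fold in RNA-seq (36.8 to 39.9) and 4.94-fold in PRO-seq (4.79 and 5.09).

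Among the mitochondrial enzymes, RARS2 (arginyl) at 1.32 ± 0.06, HARS2 (histidyl) at 1.16 ± 0.13, YARS2 (tyrosyl) at 1.10 ± 0.09, WARS2 (tryptophanyl) at 0.85 ± 0.08 and FARS2 (phenylalanyl) at 0.84 ± 0.06 were called above. HARS2 was the least repeatable of them, with 37.8 and 53.2 TPM in the PRO-seq libraries. LARS2 (leucyl) was called above by a small margin, at 0.13 ± 0.05 (edgeR, adjusted p = 0.018), and this call was lost when RNA-seq replicate 1 (edgeR, adjusted p = 0.076) or PRO-seq replicate 2 (edgeR, adjusted p = 0.17) was left out, and under DESeq2 (adjusted p = 0.059). CARS2 (cysteinyl) at 0.10 ± 0.07 and EARS2 at -0.11 ± 0.07 did not pass. The counted transcripts of CARS2 and YARS2 have no defined coding sequence in the annotation, and that of YARS2 has only 489 bases of exons, so their RNA-seq levels describe that transcript model. The counted transcripts of FARS2, IARS1 and MARS1 are annotated as targets of nonsense-mediated decay. Among the 36 genes found, 12 were counted on a transcript that the annotation does not mark as canonical. These were the 5 just named and AIMP1, CARS1, FARSA, HARS1, KARS1, LARS2 and WARS1. The part of the transcript model in their values was not tested.

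PARS2, the mitochondrial prolyl enzyme, was the only listed gene below the median mRNA against a 2-fold difference. Its transcript has 2 exons and lies at chr1:55222571-55230196 (GRCh37, minus strand). It had 96, 133, 63 and 88 counts in RNA-seq and 103 and 98 counts in PRO-seq, or 60.1 and 56.1 TPM in PRO-seq beside the low RNA levels above. Its PRO-seq level exceeded that of RARS1 while its RNA level was lower in every library, and its log2 half-life was -1.66 ± 0.15, 0.317-fold (edgeR's quasi-likelihood test, Benjamini-Hochberg adjusted p = 1.2e-11). AARS2, the mitochondrial alanyl enzyme, was also called below, with 57.5, 54.9, 58.7 and 58.8 TPM in RNA-seq, 113 and 124 TPM in PRO-seq and a log2 half-life of -0.41 ± 0.06 (edgeR, adjusted p = 1.0e-06). The whole PRO-seq window of AARS2 is covered on the opposite strand by other counted TUs, and their part in the value was not tested.

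MARS2 and SARS2 had RNA but almost no counted polymerase. MARS2, the mitochondrial methionyl enzyme (chr2:198570093-198573119, GRCh37, plus strand, 1 exon), had 200, 191, 131 and 144 counts in RNA-seq and 0 and 0 in PRO-seq. SARS2 (chr19:39405906-39421403, GRCh37, minus strand, 16 exons) had 60, 68, 29 and 46 counts in RNA-seq and 2 and 4 in PRO-seq. In both, another counted TU covers the PRO-seq window on the same strand, over 100% of it in MARS2 (ENSG00000222017) and 99.0% in SARS2 (ENSG00000269547, which also covers 77.6% of the exons of SARS2). No other gene of the list had its PRO-seq window covered on its own strand. The part of this cover in the counts was not tested, and neither gene was given a half-life.

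**Figure D1:**
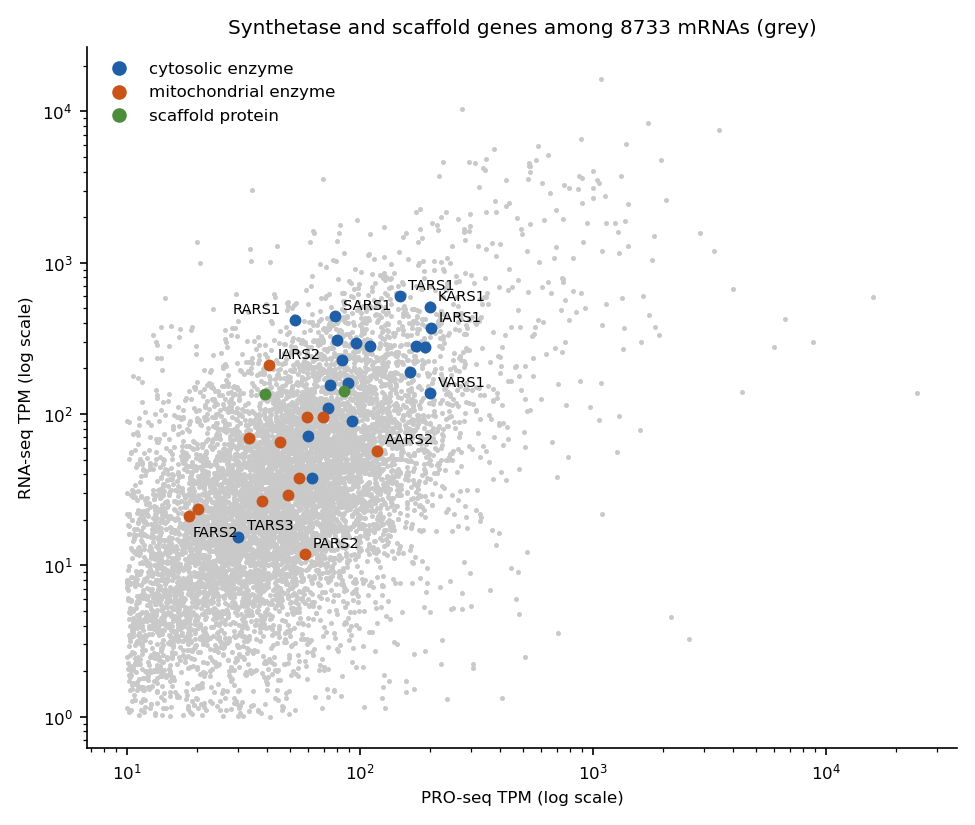
RNA-seq TPM (vertical, log axis) is plotted against PRO-seq TPM (horizontal, log axis) for 8733 mRNAs in grey and for the 34 listed genes in color. Most cytosolic enzymes sit high in the cloud at PRO-seq levels between 52.6 and 201.4 TPM, PARS2 lies low at 58.1 TPM in PRO-seq, and TARS3 is the lowest cytosolic enzyme at 15.5 TPM in RNA-seq.

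Genes of the list with more transcription tended to have more RNA, with Spearman's rho of 0.67 between PRO-seq and RNA-seq TPM over the 34 genes and 0.55 over all mRNAs tested. Within the cytosolic enzymes rho was 0.44 (n = 20) and within the mitochondrial enzymes 0.34 (n = 12), so part of the relation lay between the classes. These are descriptions across genes measured in the same libraries. The log2 half-life of the 34 genes had a rho of -0.06 with gene span, -0.26 with exon length, 0.20 with the number of exons and 0.18 with PRO-seq TPM. The corresponding values over all mRNAs were 0.03, -0.33, 0.06 and -0.01. Gene span, exon length and PRO-seq TPM enter the calculation of half-life itself. Their rho values are therefore partly set by its definition and are not evidence of a relation with RNA stability.

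Cytosolic and mitochondrial enzymes for the same amino acid could be set side by side in 13 pairs with both genes past the thresholds, of which EPRS1 and FARS2 each enter 2. RNA-seq TPM was higher for the cytosolic gene in every library in all 13 pairs. PRO-seq TPM was higher for it in both libraries in 12. The exception was RARS1 and RARS2, where the PRO-seq ratio was 0.82 and 0.953, and the RNA-seq ratio was 4.37-fold (4.14 to 4.56). The RNA-seq and PRO-seq ratios did not overlap between libraries in 12 pairs, and neither do they in 90.8% of all pairs of mRNAs tested. The RNA-seq ratio was the larger one in 9 of these and the smaller one in 3, and in YARS1 and YARS2 the ratios overlapped.

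The widest gap was between EPRS1, which charges proline in the cytosol, and PARS2, at 26.7-fold in RNA-seq (22.9 to 30.8) and 1.37-fold in PRO-seq (1.32 and 1.42). EPRS1 exceeded EARS2 10.6-fold in RNA-seq and 1.62-fold in PRO-seq, and LARS1 exceeded LARS2 10.6-fold and 2.91-fold. EARS2 and LARS2 were scaled by long exon models, of 5196 bases with 1569 coding and 10049 bases with 2709 coding. Such models lower the RNA-seq TPM if cells use shorter forms, and this was not tested. For alanine the ratio was 3.31-fold and 1.38-fold. FARSA exceeded FARS2 13.2-fold in RNA-seq, but there PRO-seq was already 9.44-fold. Smaller gaps in the same direction were seen for the asparaginyl (4.29-fold and 2.86-fold), tryptophanyl (4.602-fold and 3.59-fold) and cysteinyl (1.87-fold and 1.09-fold) enzymes. The pairs with the smaller ratio in RNA-seq were IARS1 and IARS2 (1.76-fold against 4.92-fold in PRO-seq), FARSB and FARS2 (1.79-fold against 3.38-fold) and HARS1 and HARS2 (1.36-fold against 2.06-fold). The isoleucyl pair thus had very unequal PRO-seq levels and differed far less in RNA.

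Other genes of tRNA charging were taken from a list of 24, all of which were found. Of the 18 tested, 10 lay above the median mRNA and 8 below, against the 45.4% and 44.9% of all mRNAs. The elongation factors that carry charged tRNA to the ribosome were above, EEF1A1 (1.75 ± 0.03) in the cytosol and TUFM (2.69 ± 0.07) in mitochondria, as was XPOT, which exports tRNA from the nucleus (1.21 ± 0.05). Of the amidotransferase that follows EARS2, QRSL1 (1.14 ± 0.07) and GATB (0.95 ± 0.08) were above and GATC (-0.52 ± 0.10) was below. MTFMT, which formylates the mitochondrial initiator tRNA (-0.97 ± 0.09), TRNT1, which adds the CCA end of tRNAs (-0.31 ± 0.07), and the peptidyl-tRNA hydrolase PTRH2 (-3.25 ± 0.15) were below. PTRH2 was counted on a transcript with no defined coding sequence, and TRNT1 on one annotated as a target of nonsense-mediated decay.

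The libraries held between 5732780 and 9002746 counts on TUs in RNA-seq and 6993816 and 7245632 in PRO-seq. All 9 markers of K562 cells, such as GATA1 and the embryonic and fetal globins, were above 1 TPM in RNA-seq, with summed levels of 11910 to 12800 TPM over libraries. Of the 9 markers of other cells that were found, 3 were above 1 TPM (EPCAM at 119.8, CD3D at 108.9 and COL1A2 at 1.36), with summed levels of 229 to 234 TPM over the RNA-seq libraries. Most of the K562 sum came from the globins HBG2 (6286.5 TPM), HBE1 (3103.8 TPM) and HBG1 (1827.7 TPM). EPCAM and CD3D were higher than the K562 markers LMO2 (83.7 TPM), TAL1 (79.7 TPM) and EPOR (10.8 TPM), and lower than the other K562 markers.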

How the data were processed

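The authors trimmed reads with Cutadapt, aligned them to GRCh38 with HISAT2 and counted them with HTSeq on GENCODE transcripts, 1 per gene. No source used here gives the tool versions or the strand setting. The deposited values are whole-number counts, over exons for RNA-seq and over the TU less its ends for PRO-seq (500 bp at each end per the study's methods). Records not assigned to a TU (66.5% to 68.6% in RNA-seq, 86.5% and 88.6% in PRO-seq) stayed out of library sizes and tests.

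Transcript IDs were joined to GENCODE v44 lifted to GRCh37, which matched 37339 of 42371 (88.1%). Lengths and the coordinates of transcripts come from that annotation, not from the build used for counting. TPM used the exon length in RNA-seq and the span less 1000 bp in PRO-seq. Counts as deposited were fitted with edgeR 4.0.16 (quasi-likelihood test, TMM, length offsets, R 4.3.3), centred on the median mRNA, with Benjamini-Hochberg adjustment over 10053 TUs. A test against a 2-fold difference used glmTreat, and DESeq2 1.42.0 was an alternative. On data simulated for this comparison over 10053 TUs, the fit recovered 87.5% of 200 TUs given a log2 change of 1 and made 10 false calls. The simulation set all other TUs at the median mRNA, with the same dispersion for every TU and 4 separate RNA-seq libraries. The real data differ in these respects, so it does not give the error rate of the calls reported here.

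Full values are given for the 3 highest and 3 lowest genes of the list in log2 half-life, RNA-seq TPM and PRO-seq TPM, for genes under a threshold and for pairs of enzymes. Other listed genes were named after their values were seen. Some genes of the related list enter its counts and are not reported here by name. The members and lists were chosen with earlier results of these data known. Replicate numbers did not pair the assays (correlation of replicate differences -0.01 over 9997 TUs).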

Additional observations from a re-analysis of the deposited data

Results flagged for a closer look

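In 4 of the 36 listed genes tested, 1 of the 4 RNA-seq libraries stood apart from the others, its gap to the nearest library divided by the whole range being over Dixon's 95% limit for 4 values. Chance flags about 1 group in 20, and the 4 libraries may be 2 libraries sequenced again, in which case they are not 4 separate values. For EARS2 the library was replicate 2 (gap share 0.867), at 27.8 TPM beside 29.7 to 29.99. For EPRS1 it was replicate 1 (0.954), at 300.5 TPM beside 314.6 to 315.3. For GARS1 it was replicate 2 (0.862), at 154 TPM beside 162 to 163. For IARS2 it was replicate 4 (0.961), at 215 TPM beside 208.0 to 208.3.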

How the results depend on the processing

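The limits are the PRO-seq depth of genes such as PARS2, the transcript models, and thresholds that set which mRNA is the median. The count of genes above was within 1.5 times its value of 27 under every alternative, and ranged from 26 to 28 when a library was left out. The count below, 3, ranged from 3 to 4. It was 1 with at least 1 summed count in place of TPM thresholds, 5 with thresholds of 20 (PRO-seq) and 2 TPM (RNA-seq), and 1 against a 2-fold difference. With the replicate number as a block over replicates 1 and 2 of both assays, 26 were above and 3 below, as without the block on the same libraries (a fit added after seeing the data). The cytosolic median of 1.49 (1.48 to 1.52 leaving out a library) was 2.12 with at least 1 count, 1.61 with at least 10, 1.45 with the stricter thresholds, 1.46 with 500 bp removed for PRO-seq and 1.74 centred on all TUs. The mitochondrial median of 0.85 (0.83 to 0.87) was 1.48, 0.96, 0.80 with 500 bp removed and 1.09 centred on all TUs. Their difference of 0.65 ranged from 0.64 to 0.66 leaving out a library. Without genes overlapped over 10% by another counted TU, the medians were 1.69 and 0.97 and the difference 0.72. Without transcripts not classed as protein coding, the cytosolic median was 1.40 and the difference 0.55. Both settings were chosen after seeing the data. With at least 1 count the log2 half-lives of AARS2 (0.22), EARS2 (0.52), FARSB (0.54) and TARS3 (0.30) turned positive, and with at least 10 those of EARS2 (0.0052) and FARSB (0.029), as more low TUs entered and the median mRNA moved. Over 34 genes and 16 alternatives, 510 values kept direction and call, 17 lost the call, 10 gained one and 6 changed direction.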
